A study of Mus musculus with 24 samples.

Results

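The genes described are the subunits of the transcription factor NF-kappaB and proteins that inhibit or modify its activity, read in the mouse colon. They are 10 genes of 45616 gene names on the array, read by 14 of 56605 probes. The subunits are Nfkb1, Nfkb2, Rela, Relb and Rel. The classical inhibitors are Nfkbia and Nfkbie, the nuclear IkB proteins are Nfkbiz and Bcl3, and Tnfaip3 is a ubiquitin-editing inhibitor. Probes were assigned to them by the accession each probe carries. The set was selected on the values of these same 24 arrays over the 6 groups, so the levels and diet differences of the 10 genes are a description, given with SD or SE and no p. Where members past a criterion are counted, the count describes them too and nothing is read from it.

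NF-kappaB is a family of dimers that switch on genes of inflammation, survival and immunity. In a resting cell the dimers are held in the cytoplasm by IkB proteins, and signals from TNF, IL-1 or Toll-like receptors activate the IKK kinases, which mark the IkB proteins for destruction and let the dimers enter the nucleus. Several of the genes that NF-kappaB then switches on encode its own inhibitors and subunits, so the pathway carries its own brake. In the colon it is active both in epithelial cells and in immune cells, and it is known as a link between colitis and tumor growth.

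Colon RNA came from C57BL/6J mice, 1 array per sample label and with 4 arrays in each of 6 groups. These are males (M), females with ovaries (F) and females whose ovaries were removed, F(OVX), each on food with 10 kcal% fat (LFD, low-fat diet) or 45 kcal% fat (HFD, high-fat diet), and they are written as M + LFD, M + HFD and so on. All groups, including those on the low-fat diet, were given azoxymethane (AOM, a carcinogen, 10 mg/kg) and then 1.5% of the colitis agent DSS (dextran sulfate sodium, which injures the colon lining) in 3 cycles, so no group is untreated. Mice were bought at 7 weeks of age, ate their diet for 14 weeks, and were killed 75 days after AOM. The p-values given for other genes set a difference of group means against the spread between these arrays.

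Values are log2 signals after quantile normalization over the 24 arrays, and a difference of 1 is a doubling of signal. The share of probes well above background ran from 40.5% to 61.9% over the arrays. All 12 colon epithelium markers on the array were well above background on all 24 arrays. Each sex or surgery lay on a slide of its own, its LFD arrays in row 1 and its HFD arrays in row 2, so sex or surgery and slide cannot be told apart, nor can diet and slide row. For that reason HFD was compared with LFD within each slide, and levels of M, F and F(OVX) are only set side by side. Some arrays stood apart. M + LFD replicates 1 and 2 read 2.18 and 5.04 for Hoxb13, a gene of the hindmost gut, and the other 22 arrays read 12.58 to 14.79. F(OVX) + LFD replicate 1 had a summed signal of 139224 for 5 neutrophil markers, against 124 to 914 on the other arrays of its group. The share of probes seen was lowest on F(OVX) + LFD replicate 3 (40.5%), and F + HFD replicate 2 also had a low share (43.6%). The main values that rest on these arrays are given with and without them.

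A feature that the choice of genes did not use is the promoter sequence. RefSeq promoter windows of the mouse assembly GRCm38.p6, each 250 bases before and 50 bases after a start, were found for 7 of the 10 genes, 10 windows in all, and none was used for Nfkb1, Relb and Nfkbiz. The kappaB consensus, the binding motif of NF-kappaB dimers, was searched on both strands as 3 guanines, a purine, any base, an adenine or thymine, 2 pyrimidines and 2 cytosines. It was present in 6 of the 7 genes, Rela being the exception, whereas 5.14% of all 27025 genes with a window held it. By window it was in 8 of 10, against 4.51% of 32851, but windows 2 and 3 of Nfkb2 overlap and share 1 match. The base composition differed as well, with a median GC content of 65.2% in the 10 windows and 52.7% in all windows. Among genes outside the set, the motif was in 11 of 34 windows of the NF-kappaB target list (32.4%), 4 of 13 of the other negative regulators (30.8%), 3 of 19 of the receptors (15.8%), 3 of 33 of the IKK kinases and adaptors (9.09%), 1 of 4 of the other IkB proteins (25%) and 3 of 18 of the immediate-early genes (16.7%). A match is a run of letters and not a measured binding site.

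The 150 bases just before the start are shown for the 5 genes with a match there, because they encode inhibitors or subunits of the very factor whose motif their promoters hold. Each runs 5′ to 3′ on the strand of the gene, and capitals mark the kappaB matches, with overlapping matches joined. The stretches are chr12:55492648-55492797 for Nfkbia (minus strand), chr17:45555550-45555699 for Nfkbie (plus), chr10:19015411-19015560 for the upstream start of Tnfaip3 (minus), chr19:46304587-46304736 for the first of 3 starts of Nfkb2 (plus) and chr11:23770970-23771119 for Rel (minus).
Nfkbia: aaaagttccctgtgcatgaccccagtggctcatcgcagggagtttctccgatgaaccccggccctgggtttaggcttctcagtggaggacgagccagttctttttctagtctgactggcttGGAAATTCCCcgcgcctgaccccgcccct
Nfkbie: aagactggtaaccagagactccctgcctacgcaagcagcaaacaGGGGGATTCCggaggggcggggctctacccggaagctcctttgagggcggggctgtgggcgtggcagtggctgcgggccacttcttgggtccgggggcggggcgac
Tnfaip3: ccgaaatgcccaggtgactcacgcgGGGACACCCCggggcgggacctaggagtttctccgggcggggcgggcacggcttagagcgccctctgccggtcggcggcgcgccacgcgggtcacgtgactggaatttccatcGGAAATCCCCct
Nfkb2: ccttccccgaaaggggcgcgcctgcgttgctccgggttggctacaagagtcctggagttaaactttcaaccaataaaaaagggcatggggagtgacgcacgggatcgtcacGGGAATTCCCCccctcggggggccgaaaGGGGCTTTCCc
Rel: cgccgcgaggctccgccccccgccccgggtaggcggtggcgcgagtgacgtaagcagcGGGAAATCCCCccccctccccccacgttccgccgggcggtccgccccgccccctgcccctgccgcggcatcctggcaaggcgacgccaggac
The match of Nfkbia began 29 bases before the start, those of Tnfaip3 125 and 12 bases, those in the first window of Nfkb2 39, 38 and 11 bases, that of Nfkbie 106 bases and those of Rel 92 and 91 bases. The match 39 bases before that start of Nfkb2 and that 92 bases before the start of Rel met the pattern on both strands. In Bcl3 the match lay 3 bases past the start, on the opposite strand. The downstream start of Tnfaip3 had none.

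The largest difference that kept its sign in all 3 comparisons was a lower signal of Nfkbiz on HFD. Nfkbiz (NM_030612) encodes IkB-zeta, a nuclear IkB protein that is made during inflammation and helps NF-kappaB switch on a second wave of genes. On its brighter probe, F + LFD arrays read 9.60, 9.37, 9.33 and 9.52, and F + HFD arrays read 8.33, 8.20, 8.81 and 9.22. The 4 F + HFD arrays were all below the 4 F + LFD arrays, and the LFD arrays lay close together. The means were 9.46 ± 0.13 (SD, n = 4) and 8.64 ± 0.47, a difference of -0.82 (SE 0.23), or 1.76-fold lower on HFD, and -0.67 without F + HFD replicate 2.

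In F(OVX) + LFD Nfkbiz read 9.89, 8.55, 8.96 and 9.60, and in F(OVX) + HFD 8.04, 8.43, 8.22 and 8.78. The HFD arrays lay below every LFD array, except replicate 4, which lay within their range. The difference was -0.88 (SE 0.30), or 1.84-fold, and it was -0.67 without F(OVX) + LFD replicate 1, the array with the high neutrophil markers, and -0.98 without replicate 3. In M + LFD it read 10.06, 9.37, 8.91 and 10.27, and in M + HFD 8.23, 9.89, 8.42 and 9.56. The male arrays overlapped widely, and M + HFD fell into a low and a high pair. The male difference was -0.63 (SE 0.45), and -0.57 without M + LFD replicates 1 and 2. The diet effect in males minus that in F was 0.19 (SE 0.52), and minus that in F(OVX) 0.25 (SE 0.52).

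The dimmer Nfkbiz probe, well above background on 23 of 24 arrays, was in part unlike the brighter one. It read 7.31, 7.70, 7.46 and 7.13 in F + LFD and 6.78, 6.03, 6.98 and 6.91 in F + HFD, a difference of -0.72, again with no overlap (-0.51 when F + HFD replicate 2 was left out). In OVX females the difference was -0.12 (7.12 ± 0.83 against 7.00 ± 0.51). The LFD arrays read 7.41, 7.29, 5.93 and 7.85, and the HFD arrays 7.13, 7.23, 6.26 and 7.39. Replicate 3 was the lowest on each diet, and F(OVX) + LFD replicate 3 was the array with the fewest probes above background. Without that LFD array, and with the low HFD array kept, the difference was -0.51. Without F(OVX) + LFD replicate 1 it was -0.022. In males it was -0.13, and -0.056 without M + LFD replicates 1 and 2.

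**Figure D1:**
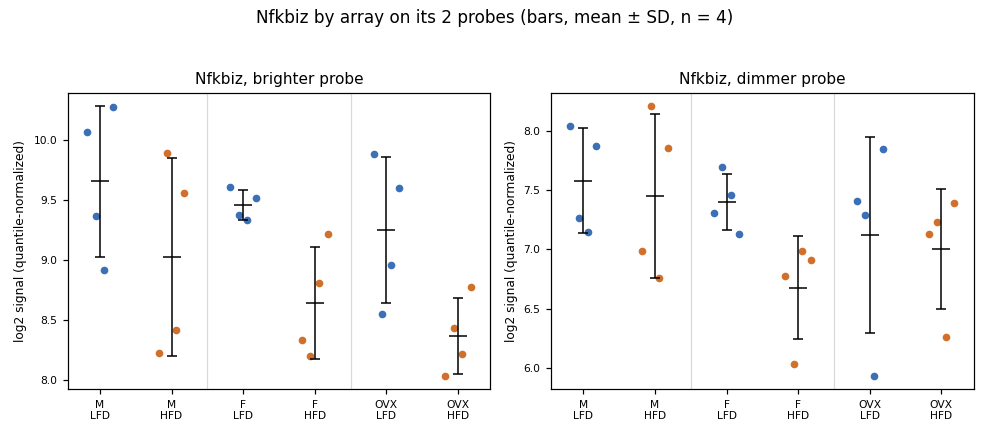
Nfkbiz log2 signal on each of the 24 arrays for the brighter (left) and the dimmer probe (right), blue for LFD and orange for HFD, with the mean ± SD of 4 arrays as bars. On both probes the 4 F + HFD arrays lie below the 4 F + LFD arrays, and in M and F(OVX) the difference is larger on the brighter probe (-0.63 and -0.88) than on the dimmer one (-0.13 and -0.12).

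Bcl3 (NM_033601), the other nuclear IkB protein, binds NF-kappaB dimers that lack an activation domain of their own and can turn them into activators. Its largest difference was in males, opposite in direction to that of Nfkbiz. M + LFD arrays read 12.47, 11.96, 12.51 and 12.59, and M + HFD arrays 13.43, 14.02, 12.56 and 12.34. Replicates 1 and 2 of M + HFD were the highest Bcl3 values of all 24 arrays, and replicates 3 and 4 lay within the LFD range. The difference of 0.70 (SE 0.37), or 1.63-fold higher, therefore rested on 2 arrays, and it was 0.39 without M + HFD replicate 2. Without M + LFD replicates 1 and 2 it was 0.54. In F the difference was -0.11 (SE 0.26) and in F(OVX) -0.03 (SE 0.37), where F(OVX) + LFD replicate 2 read 11.57 and the other 3 arrays of the group 12.78 to 12.88.

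Tnfaip3 (NM_009397) encodes A20, which removes and adds ubiquitin chains on adaptors of TNF and Toll-like receptor signaling and so stops IKK activation. In OVX females it was lower on HFD. F(OVX) + LFD arrays read 10.62, 11.11, 10.72 and 10.40, the highest group mean of the 6 (10.71 ± 0.30), and F(OVX) + HFD arrays read 10.50, 9.83, 10.07 and 10.21. A single HFD array, replicate 1, exceeded the lowest LFD array. The difference was -0.56 (SE 0.20), or 1.48-fold, just under the fold of 1.5 used by the study, and leaving out F(OVX) + LFD replicate 1 gave -0.59. The sign was opposite in males. M + LFD read 9.75, 9.84, 9.98 and 10.05, the lowest group mean (9.90 ± 0.13), and M + HFD read 10.28, 10.38, 10.005 and 10.02, a difference of 0.27 (SE 0.15) that was 0.16 without M + LFD replicates 1 and 2. In F it was -0.19 (SE 0.19). The diet effect in males minus that in OVX females was 0.83 (SE 0.25).

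The classical inhibitors trap NF-kappaB dimers in the cytoplasm, and Nfkbia, encoding IkB-alpha, is a textbook early target of the factor. Nfkbia (NM_010907) had the second smallest range of group means in the set, 0.34. They ran from 12.40 ± 0.17 in M + HFD to 12.74 ± 0.63 in F + HFD, and every neighbouring pair in the order lay within its spread. The differences were -0.03 (SE 0.16) in M, 0.08 (SE 0.30) in F and -0.12 (SE 0.18) in F(OVX). The arrays of F + HFD were spread more widely than that, at 12.20, 12.34, 12.83 and 13.60. Nfkbie (NM_008690), encoding IkB-epsilon, varied more from array to array, from 6.73 to 8.58. Its differences were -0.03 (SE 0.25) in M, -0.29 (SE 0.36) in F and -0.27 (SE 0.36) in F(OVX), all within their error. Leaving out M + LFD replicates 1 and 2 gave -0.34 in males.

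Among the subunits, Rela, Relb and Rel carry a domain that activates transcription, while Nfkb1 and Nfkb2 encode precursors that are cut to yield the DNA-binding partners. Nfkb1 (NM_008689) had diet differences of opposite sign in males and females. M + LFD arrays read 7.27, 7.39, 7.44 and 6.94, and M + HFD arrays 6.93, 6.88, 7.04 and 6.58. The M + LFD arrays were above all M + HFD arrays, except replicate 4, and the difference was -0.40 (SE 0.17), or -0.34 without M + LFD replicates 1 and 2. F + LFD arrays read 6.81, 7.32, 6.39 and 6.66, and F + HFD arrays 7.37, 7.30, 7.01 and 6.91. Here the HFD arrays were higher by 0.35 (SE 0.22), with F + LFD replicate 2 as high as the HFD arrays. In F(OVX) the difference was 0.14 (SE 0.17). The effect in males minus that in females was -0.75 (SE 0.26).

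The other subunits differed little by diet. Nfkb2 (NM_019408) differed by 0.18 (SE 0.16) in M, -0.08 (SE 0.15) in F and 0.11 (SE 0.18) in F(OVX), and its other probe by 0.23, 0.11 and 0.14. Its group means were highest in M + HFD (10.29 ± 0.25) and M + LFD (10.10 ± 0.15), and the other 4 groups read 9.67 to 9.84, a gap that cannot be told apart from the slide. Rela (NM_009045), the main activating subunit, had the smallest range of group means of the set, 0.24, from 12.45 ± 0.13 in M + LFD to 12.69 ± 0.19 in M + HFD. The difference in M was 0.24 (SE 0.15), in F -0.07 (SE 0.15) and in F(OVX) 0.06 (SE 0.15). Relb (NM_009046), the partner of the cut Nfkb2 product, differed by 0.08 (SE 0.25), -0.06 (SE 0.22) and -0.10 (SE 0.17), and by 0.39 in males without M + LFD replicates 1 and 2, which were the highest of their group at 11.22 and 11.44. The other Relb probe (NM_001290457) differed by -0.01, -0.12 and 0.02. Rel (NM_009044), the lymphoid subunit, was well above background on 8 of 24 arrays and was not tested. It ranged from 2.19 to 4.86, and its arrays overlapped in every comparison.

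**Figure D2:**
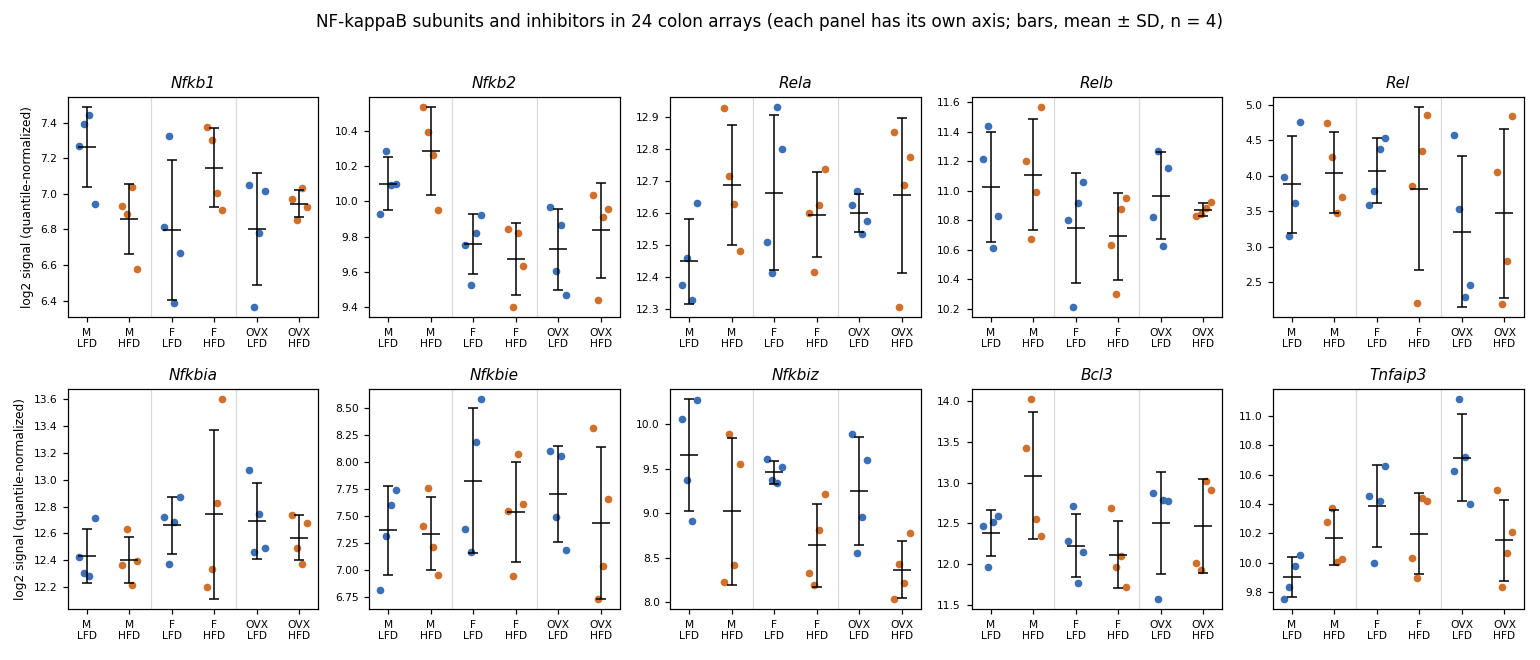
Log2 signal of the 10 genes on each array, by sex or surgery and diet, with the brightest probe of each gene, its own vertical axis and the mean ± SD of 4 arrays as bars. Nfkbiz is lower on HFD (orange) in all 3 pairs of groups, and Rela group means span 0.24.

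The orders of the group means showed few gaps larger than the spread. In 8 of the 10 genes every step between neighbouring groups was smaller than the larger of their SDs. The exceptions were Tnfaip3, where F(OVX) + LFD stood 0.33 above F + LFD, and Rela, where M + LFD stood 0.15 below F + HFD. Both gaps lie between groups on different slides and cannot be told apart from the slide. Nfkbiz had the widest range of group means, 1.29, with the 3 LFD groups in the first 3 places and the 3 HFD groups in the last 3.

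In each comparison 9 of the 10 genes passed the filter on dim probes, and Rel did not. By the criteria of the study, a differentially expressed gene (DEG) differed at least 1.5-fold with p under 0.05 before adjustment. In males 0 of the 9 were DEGs, where 2.5% of the 20516 genes tested were higher and 1.8% lower. In females 1 of the 9, Nfkbiz, was lower, where 0.398% of 22085 genes were higher and 0.797% lower. In OVX females 1 of the 9, again Nfkbiz, was lower, where 1.18% of 19211 genes were higher and 1.02% lower. Arrays of the diets did not overlap for Nfkbiz in females alone, where 0.706% of genes lay wholly below and 1.2% wholly above. In males no member was without overlap (1.69% of genes above and 0.912% below), and none was in OVX females (1.48% above and 0.812% below). Since the genes were picked on these differences, the counts are not read against the shares. The medians over the 9 genes were 0.08, -0.08 and -0.10, and over all genes tested 0.010, -0.0045 and 0.011. In these fits by limma 0 genes on the array passed an adjusted p of 0.05, where 1251, 643 and 709 genes had an unadjusted p under 0.05.

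The same criteria applied to the difference between diet effects gave 1 of 9 genes, Nfkb1, for M against F, where 2.95% of all 22383 genes passed, and 1 of 9, Tnfaip3, for M against F(OVX), where 6.16% passed. It gave 0 of 9 for F(OVX) against F, where 1.52% passed. The first and second of these contrasts share the 8 male arrays. Leaving out M + LFD replicates 1 and 2 left Nfkb1 and Tnfaip3 as the genes that passed.

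**Figure D3:**
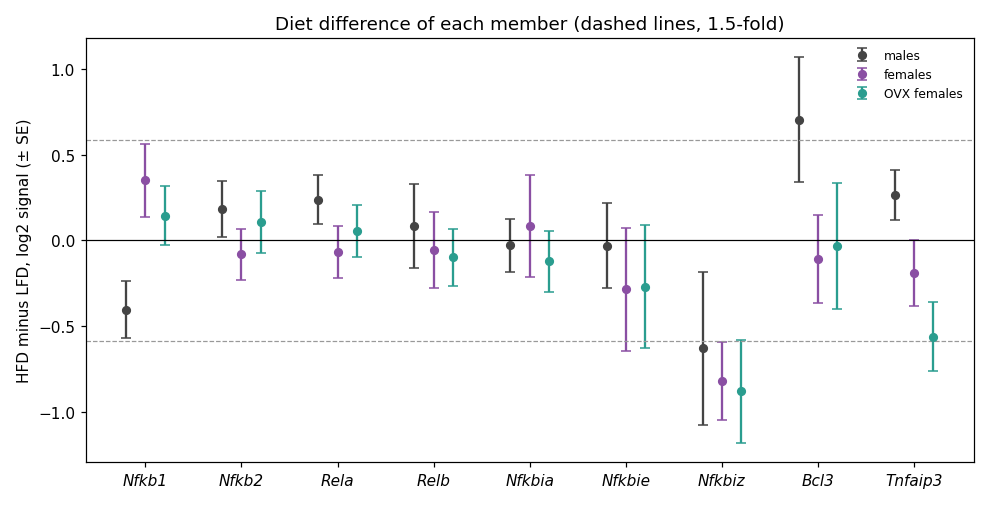
HFD minus LFD on the log2 scale for the 9 genes tested, in males (grey), females (purple) and OVX females (green), with ± SE bars and dashed lines at the 1.5-fold change. Nfkbiz lies beyond the lower line in females (-0.82) and OVX females (-0.88) and at -0.63 in males. All genes but Nfkbiz and Nfkbie change sign between comparisons, and most differences of those genes are smaller than their SE.

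The arrays were also compared within groups, by the deviation of each gene from its 6 group means over the 24 arrays. Among the 45 pairs of the 10 genes, the median Pearson r was 0.20, with 14 pairs above 0.5 and 14 below 0. The highest were Nfkb2 with Nfkbie (r = 0.78, Spearman rho = 0.72), Nfkbie with Tnfaip3 (0.73 and 0.72), Rela with Rel (0.70 and 0.72) and Rela with Nfkbie (0.70 and 0.68). These genes, with Nfkbia, formed a block of mutual r from 0.27 to 0.78. Rel was well above background on 8 of 24 arrays, so its place in the block rests in large part on signal near background. Its deviations had an r of 0.58 with those of the upper quartile of an array's signal. Relb, Bcl3 and Nfkb1 stood outside it, and the lowest values were Nfkb1 with Tnfaip3 (-0.59 and -0.56), Relb with Bcl3 (-0.55 and -0.50) and Nfkb1 with Relb (-0.54 and -0.50). Nfkbiz ran with Nfkbia (0.60 and 0.64), and its r with Nfkbie was 0.07. The pair that moved most without M + LFD replicates 1 and 2 was Nfkb1 with Relb, which went from -0.54 to -0.62. The points share arrays and signal range, so no p is given. The deviations also had an r of -0.62 (Nfkbie) to 0.19 (Relb) with those of the mean of 4 anterior Hox genes. That mean was highest on M + LFD replicates 1 and 2, at 9.75 and 9.48. With the deviations of the upper quartile of an array's signal, r ran from -0.33 (Nfkb1) to 0.61 (Relb). The part of these array properties in the correlations was not tested.

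**Figure D4:**
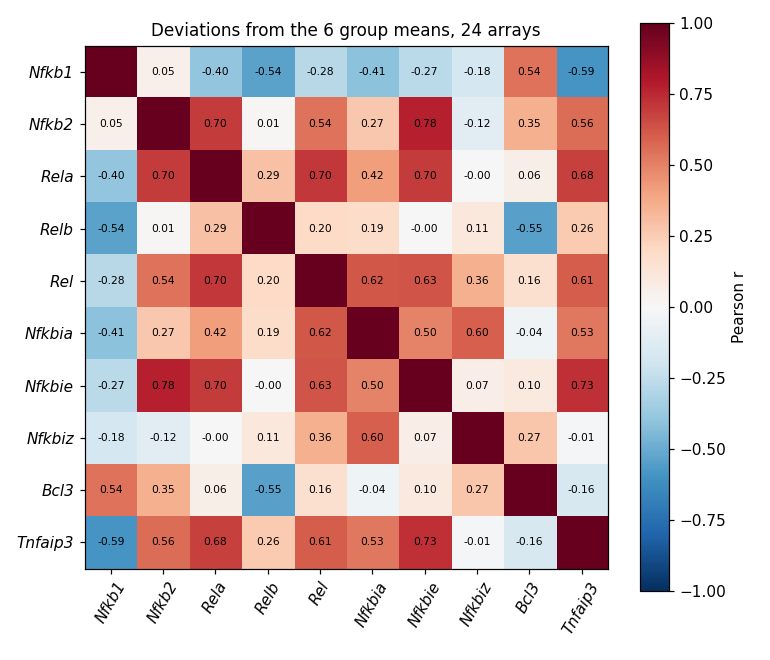
Pearson r between the deviations of each pair of genes from their 6 group means over 24 arrays, red for positive and blue for negative. Nfkb2, Rela, Rel, Nfkbia, Nfkbie and Tnfaip3 share positive values, and Nfkb1 is negative with Tnfaip3 (-0.59) and Relb (-0.54). Rel was well above background on 8 of 24 arrays.

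A search covered 11870 genes outside the set that had a symbol and were well above background on all 24 arrays. Those whose deviations were most like Nfkbia were Pde4b, a phosphodiesterase of immune cells (r = 0.76, rho = 0.70), Apol7b (0.72 and 0.58), Lat, an adaptor of the T cell receptor (0.72 and 0.76), Gpr132 (0.71 and 0.73) and Cd5, a T cell surface protein (0.71 and 0.78). Those most like Nfkbiz were Esyt1 (0.69 and 0.65), Tac1, the precursor of the neuropeptide substance P (0.68 and 0.68), Sema6d (0.67 and 0.68), Tmem250-ps (0.67 and 0.80) and Dffb (0.66 and 0.61). These are the top 5 of a search over many genes and are given as a description.

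The rest of the pathway was read from lists of 103 genes that do not belong to the set. In males 92 were tested, of which 2 rose (2.17%) and 3 fell (3.26%). In females 91 were tested, with 0 higher and 4 that fell (4.40%), and in OVX females 86, with 0 higher and 4 that fell (4.65%). The shares for all genes were those given above. In these fits 0 passed an adjusted p of 0.05 by limma, and 7, 6 and 4 had an unadjusted p under 0.05. Upstream, the 29 IKK kinases and adaptors tested held 1 DEG, Nod2, a sensor of bacterial cell wall, which fell by 0.84 (SE 0.18, adjusted p = 0.80) in males with no overlap between the diets. Among the receptors, Tlr2 fell by 0.83 (SE 0.35) and Tlr3 by 0.69 (SE 0.25) in males (adjusted p = 0.80 for both), Tlr6 fell by 0.64 (SE 0.24, adjusted p = 0.99) in females, and Il18r1 fell by 1.04 (SE 0.24, adjusted p = 0.9996) in OVX females without overlap. Without M + LFD replicates 1 and 2, Nod2 was called at -0.77, Tlr3 was at -0.63 and no longer passed the p, and Tlr2 was at -0.35. Tlr6 was well above background on 4 of 4 F + LFD and 3 of 4 F + HFD arrays, so it passed the filter through the group where it was high. Without F + HFD replicate 2, Tlr6 was at -0.61 and no longer passed the p, and Tlr2 was called lower. The 14 other negative regulators and the 2 other IkB proteins held 0 DEGs in any comparison, with 16 of those 16 genes tested in males and 15 in each of the other comparisons.

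Target genes of NF-kappaB were mostly lower on HFD in both female comparisons. In females 27 of 30 target genes tested were lower on HFD, with a median of -0.39, and 3 fell by the study's criteria. These were Ccl2, which attracts monocytes (difference -1.32, SE 0.37), Cxcl1, which attracts neutrophils (-1.35, SE 0.48), and Saa3, an acute-phase protein (-1.96, SE 0.77), each with an adjusted p of 0.99. Cxcl1 was well above background on 4 of 4 F + LFD and 1 of 4 F + HFD arrays, so it passed the filter through the group where it was high. Without F + HFD replicate 2 the calls were Ccl2 (-1.01) and Saa3 (-2.15), Cxcl1 was at -0.99, and 23 of 30 were lower with a median of -0.17, and leaving out 1 array gave from 1 call (Ccl2, without F + HFD replicate 1) to 7 (without F + HFD replicate 4), Ccl2 being called each time. In OVX females 24 of 28 were lower, with a median of -0.17, and 3 fell, namely Nos2 (-2.02, SE 0.38), Cxcl5 (-2.35, SE 0.94) and Ccl20 (-1.58, SE 0.66), each with an adjusted p of 0.9996. Cxcl5 was well above background on 4 of 4 F(OVX) + LFD and 3 of 4 F(OVX) + HFD arrays. It thus passed the filter through the group where it was high. Nos2, the inducible nitric oxide synthase, read 8.92 to 10.01 in F(OVX) + LFD and 6.69 to 8.48 in F(OVX) + HFD. Nos2 alone fell without F(OVX) + LFD replicate 1, where 19 of 28 were lower, and without replicate 3, where 17 were lower. Cxcl5 and Ccl20 then stayed past the fold, at -2.13 and -1.49 and at -2.09 and -1.53, but not the p. Leaving out any 1 array gave 1 to 4 calls, with Nos2 called each time.

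In males 18 of 31 target genes were higher and 13 lower, with a median of 0.14, and Cxcl1 (mean 4.52 in M + LFD and 6.02 in M + HFD, SE of the difference 0.61) and Il1rn, the natural IL-1 receptor blocker (0.83, SE 0.24), rose (adjusted p = 0.80 for both). Cxcl1 was well above background on 2 of 4 M + LFD arrays and on 4 of 4 M + HFD arrays. Without M + LFD replicates 1 and 2 Il1rn alone rose (0.79), Cxcl1 was at 0.71, and 13 were higher and 18 lower, with a median of -0.092. The summed signal of the 39 target genes on the array had a lower mean on HFD in males as well. On the log2 scale it was 15.97 ± 0.05 in M + LFD and 15.81 ± 0.17 in M + HFD. In F it was 15.66 ± 0.20 and 15.44 ± 0.16, and in F(OVX) 15.64 ± 0.31 and 15.49 ± 0.14. Leaving out 1 array gave from 1 call (Il1rn, without M + LFD replicate 1 or 2 or M + HFD replicate 1 or 2) to 6 (without M + LFD replicate 4). As for the difference of diet effects, 4 of 31 target genes passed for M against F (Ccl2, Cxcl1, Cxcl5 and Il1rn), all toward a higher effect in males. Over all genes 2.95% passed. For M against F(OVX) 4 passed (Ccl20, Cxcl1, Cxcl5 and Il1rn), where 6.16% of all genes did. Without M + LFD replicates 1 and 2, 1 and 2 target genes were left, where 706 and 1065 of all 22383 genes passed. Cxcl1 and Cxcl5 are in both counts of 4. Cxcl1 passed the filter through M + HFD and F + LFD, and Cxcl5 through these and F(OVX) + LFD. These are the groups of each pair where the genes were high, so their part in the counts is not read further. In females, where same-numbered arrays were taken as pairs, a fit blocked on that number called 10 pathway genes in place of 4. Over all genes it called 586 in place of 264. Of the 10, 7 were target genes that fell, Ccl2, Ccl5, Cxcl1, Cxcl5, Il1b, Nos2 and Saa3. Cxcl1 and Cxcl5 passed the filter there through F + LFD, where they were high.

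Immediate-early genes, which like Nfkbia and Tnfaip3 answer stimulation quickly, had opposite signs in males and females. In males 17 of 17 were higher, with a median of 0.61, and Fosb (1.79, SE 0.54), Zfp36 (0.67, SE 0.23), Junb (0.66, SE 0.26) and Ier2 (0.61, SE 0.16) rose without overlap (adjusted p = 0.80 for each). Over all genes tested in males 2.5% rose, and 1.69% lay wholly above. The diets were barely apart for Zfp36 (highest LFD array 11.30, lowest HFD array 11.31) and Junb (12.89 and 12.91). In females 17 of 17 were lower, with a median of -0.41, and Egr1 (-0.88, SE 0.29), Fos (-0.85, SE 0.36), Nr4a1 (-0.80, SE 0.31), Btg2 (-0.66, SE 0.23) and Zfp36 (-0.60, SE 0.26) fell (adjusted p = 0.99 for each). Over all genes tested in females 0.797% fell. In OVX females 8 were higher and 9 lower, and 0 were DEGs. The difference between the effects in males and females passed in 8 of 17 genes, all toward males, and in 8 again without M + LFD replicates 1 and 2, although in males alone the DEGs were then 2, Atf3 and Zfp36. Without F + HFD replicate 2 the females had 4 DEGs, Zfp36 being at -0.68 without passing the p, and 17 of 17 were lower. Leaving out 1 array gave 1 (without M + LFD replicate 2) to 10 DEGs (without M + HFD replicate 2) in males, 2 (without F + LFD replicate 2 or 3) to 4 in females, and 6 to 10 for the difference between them, where 2.95% of all genes passed.

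**Figure D5:**
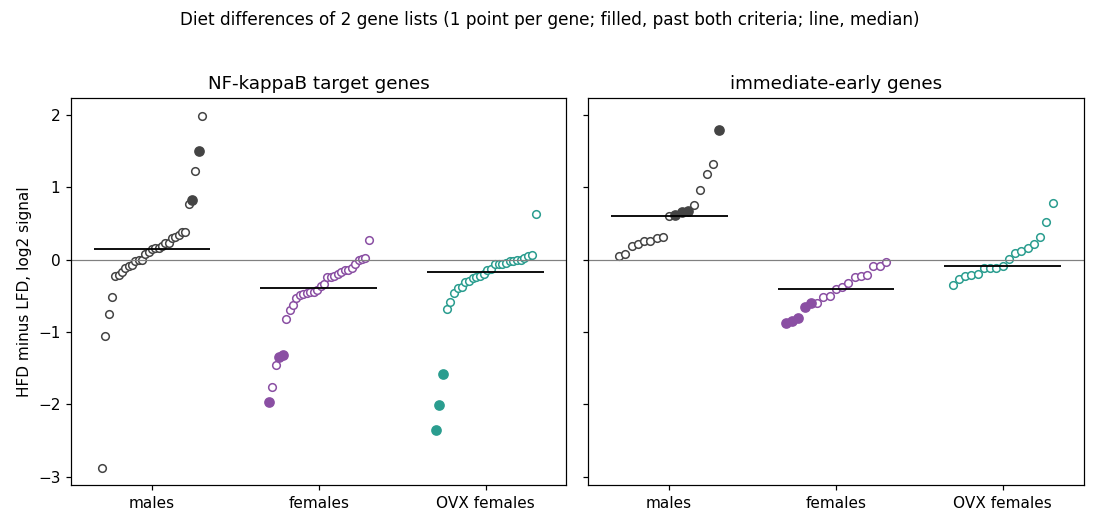
HFD minus LFD on the log2 scale for the NF-kappaB target genes (left) and the immediate-early genes (right) in males, females and OVX females, with 1 point per gene, filled where the gene passed the study's criteria, and a line at the median. The medians are 0.14, -0.39 and -0.17 for the target genes and 0.61, -0.41 and -0.09 for the immediate-early genes. Without M + LFD replicates 1 and 2 the male median of the target genes is -0.092.

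Cell type markers moved with the diets as well. In this bulk RNA, fewer cells of a type and less RNA per cell cannot be told apart. T cell markers (9 on the array, 8 well above background on all arrays) were lower on HFD for 9 of 9 in males, 8 of 9 in females and 8 of 9 in OVX females, with medians of -0.43, -0.38 and -0.26. Their summed signal ran from 3324 to 4295 in M + LFD and 2446 to 3304 in M + HFD, from 2791 to 7546 in F + LFD and 2350 to 5523 in F + HFD, and from 2990 to 6151 in F(OVX) + LFD and 2188 to 4348 in F(OVX) + HFD. Myeloid markers (8 of 9 well above background on all arrays) had medians of 0.11, -0.51 and -0.28, with 7 of 8 tested higher in males, 7 of 8 lower in females and 8 of 8 lower in OVX females, and summed signals of 12776 to 18014 against 14893 to 19045 in M, 11513 to 25248 against 12137 to 18913 in F and 12360 to 18209 against 10924 to 15109 in F(OVX).

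Smooth muscle markers ran the other way in females and OVX females, with medians of -0.03, 0.50 and 0.76 in M, F and F(OVX). In OVX females 4 of 7 rose by the study's criteria (Tagln, Cnn1, Actg2 and Des), where 1.18% of all genes did. These 4 were named after their values were seen. In the same comparison 1 of 7 B and plasma cell markers and 1 of 8 myeloid markers fell, where 1.02% of all genes did. The summed muscle signal was 44390 to 102835 on LFD and 95535 to 210037 on HFD, and in females the sums were 75743 to 264274 and 140837 to 199266. None of 5 neutrophil markers was well above background on all 24 arrays, and their sums were 65.3 to 2725 in F + LFD and 40.4 to 265 in F + HFD. Without F(OVX) + LFD replicate 1 the calls among the muscle markers were 1 (Actg2) and without replicate 3 they were 0, while 7 of 7 stayed higher with medians of 0.71 and 0.52.

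Markers of other cells are given by their medians. In OVX females B and plasma cell markers were lower for 7 of 7 (median -0.51), colon epithelium markers higher for 11 of 12 (0.26) and endothelium markers higher for 5 of 5 (0.19). In females these medians were 0.26, -0.078 and -0.17, and in males 0.74, -0.056 and 0.0082. Fibroblast markers had medians of 0.20, -0.082 and -0.099 in M, F and F(OVX), and adipocyte markers -0.51, 0.010 and 0.26. Of 9 B and plasma cell markers, 7 were tested in females and 5 in males. The log2 sum of all 9 had a lower mean on HFD, from 15.03 to 14.58 in F and from 14.39 to 14.17 in M. It also ran against the median for endothelium in F (10.82 to 10.99) and adipocytes in F(OVX) (11.75 to 11.29). The arrays that stood apart mattered for some lists. In males the B and plasma cell median was -0.93 and the myeloid median -0.095 without M + LFD replicates 1 and 2, with the T cell median at -0.44. In females without F + HFD replicate 2 the T cell, myeloid and muscle medians were -0.19, -0.26 and 0.47. In OVX females they were -0.19, -0.20 and 0.71 without F(OVX) + LFD replicate 1. The part of these cell types in the differences of Nfkbiz, Tnfaip3 and the target genes was not tested.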

How the data were processed

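Single-color Agilent mouse arrays were scanned and read out by the authors with Agilent Feature Extraction 11.0.1.1, the version named in the study's methods. The deposited values are background-subtracted signal intensities per probe. Control spots and outlier flags were left out, spots of a probe were averaged, and the intensities were put on the log2 scale and quantile normalized over the 24 arrays, since the study used quantile normalization. Quantile normalization assumes a like spread of signal on all arrays. Groups were taken from the sample labels, 4 arrays each, while the methods name 5 animals per group, picked for a body weight near the group's average.

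A gene was read by its brightest probe and tested where 4 of 4 arrays in at least 1 of the groups compared read it well above background. HFD was compared with LFD within M, F and F(OVX) by limma 3.58.1 in R 4.3.3 on the 8 arrays concerned, with Benjamini-Hochberg adjustment over all genes, and differences between diet effects were taken from 1 fit of the 24 arrays. The script was tested on simulated data. Of 56605 probes, 32994 (58.3%) carried an accession with a gene symbol. Per array 40.5% to 61.9% of probes were well above background, and 4 arrays per group limit the precision.

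Same-numbered arrays of the diets share a slide column. Their deviations had r of 0.25, 0.39, 0.51 and 0.23 in F, so that the numbers were taken to pair the samples there. The r was -0.22 to 0.06 in M and -0.076 to 0.31 in F(OVX), where they were not. The array with the highest r had the same number for replicates 2 and 3 alone in F, and for replicates 1, 3 and 4 in F(OVX). Pairing in F is thus an assumption.

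The 10 genes and all gene lists were chosen with earlier results of these data known. Named are all 10 genes with every probe, from each pathway list and the immediate-early list the DEGs, at most 5 per comparison by size, the 5 genes most like Nfkbia and the 5 most like Nfkbiz, Hoxb13, and the smooth muscle genes called in F(OVX), which were named after their values were seen. Alternatives covered the test, scaling, background correction, filter, probe choice, replicate block, an anterior Hox covariate and each array left out. Protein sequences were not used here.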

Additional observations from a re-analysis of the deposited data

Results flagged for a closer look

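Bcl3 on F(OVX) + LFD replicate 2 read 11.57, and the other 3 arrays of the group read 12.78 to 12.88. The gap to the nearest array was 0.923 of the range of the group. It was the 1 flag among 60 sets of 4 arrays, fewer than the about 1 in 20 that chance gives, so it is no more than a value to look at.

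The diet effect on Nfkb1 in males minus that in females was -0.754 on the log2 scale (SE 0.26), with lower levels on HFD in males and higher ones in females. The diet effect on Tnfaip3 in males minus that in OVX females was 0.828 (SE 0.25), with higher levels on HFD in males and lower ones in OVX females. Both genes were chosen with these values in view, both contrasts share the male arrays, and each sex or surgery lay on its own slide.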

How the results depend on the processing

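Of 468 diet differences of the 9 genes under the alternatives, 0 called values changed sign and 466 moved by less than the spread between replicates. The exceptions were Relb (0.52) and Nfkbie (-0.47) in males with the anterior Hox score as a covariate. Nfkbiz ran from -0.92 to -0.36 in M, -1.01 to -0.67 in F, where it was called under every alternative, and -1.11 to -0.50 in F(OVX). With the mean of all probes of a gene, 0 members were called in F(OVX), and with the Hox covariate 2 were, Nfkbiz and Tnfaip3. Leaving out 1 array gave 0 to 1 members in M (Bcl3, without M + HFD replicate 4) and 1 to 2 in F(OVX), with Tnfaip3 added without F(OVX) + LFD replicate 1 or 4 or F(OVX) + HFD replicate 1. Unlike effects in M and F were found for 0 members with normexp background correction, and those in M and F(OVX) for 1 to 2 when 1 array was left out, with Nfkb1 added without M + LFD replicate 4, M + HFD replicate 3 or F(OVX) + LFD replicate 1 or 4, and Bcl3 without F(OVX) + LFD replicate 2.

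Of the other pathway genes, 5 were called in M, and 3 with the methods' t-test, with normexp, with no filter on dim probes or without M + LFD replicates 1 and 2, against 8 in 1 fit of all 24 arrays. Leaving out 1 array gave 3 (M + LFD replicate 1 or 2, M + HFD replicate 1 or 2) to 9 (M + LFD replicate 4, M + HFD replicate 4). In F 4 were called, against 2 with the t-test, with normexp or with probes above background on all 24 arrays, and 12 with the Hox covariate. Leaving out 1 array gave 2 (F + LFD replicate 4, F + HFD replicate 1), 8 (F + LFD replicate 2) or 9 (F + HFD replicate 4) at the extremes. In F(OVX) 4 were called, against 2 with the t-test, and 2 (F(OVX) + LFD replicate 3) to 7 (F(OVX) + LFD replicate 2) with 1 array left out.

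Pairing by the replicate number as a block gave 10 pathway genes in F, where the numbers were assumed to pair the samples, and changed no member call. Over all genes, the DEGs in M, F and F(OVX) were 882, 264 and 421. They were 489, 125 and 209 by the methods' t-test, with 0 after Benjamini-Hochberg, 565, 82 and 269 with normexp, 1217, 627 and 843 with no filter, 960, 586 and 555 with the block, and 1257, 916 and 669 with the Hox covariate. The filter for all 24 arrays gave 108 in F, and the fit of all arrays 251 in F(OVX). The share of DEGs in M that were higher was 58.0%, and 39.7% without M + LFD replicates 1 and 2. With normexp it was 20.7% in F, against 33.3%. An adjusted p under 0.05 was reached by 1 gene in M in 1 fit of all 24 arrays, by 2 when M + LFD replicate 4 was left out and by 1 when M + HFD replicate 1 was, and by 5 for unlike effects in M and F(OVX) without M + LFD replicate 4. A slide block was not run, since each slide holds 1 sex or surgery and every diet comparison lies within a slide. The cause of these changes was not tested, and dim probes such as that of Rel limit what can be read.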
